A study of Mus musculus with 12 samples.

Results

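The 10 genes studied here are those that collecting duct intercalated cells use to move acid and base, measured in embryonic kidneys of the Pkd1-/- mouse: Foxi1, Slc4a1, Slc26a4, Slc4a9, Rhbg, Atp6v1b1, Atp6v0d2, Atp6v1g3, Atp6v0a4 and Atp6v1c2. Every probe annotated to one of these genes was taken, 14 probes in all. A probe was kept when its detection p-value, which compares it with the negative control beads of the same array, was under 0.05 on at least 3 of 12 arrays. By this filter 9 probes of 7 genes were kept, among 14882 features (11616 named genes and 3266 unnamed probes) tested over the whole array. Atp6v0d2, Atp6v1g3 and Atp6v0a4 were detected on 0 arrays. At the edge of the filter, the second Foxi1 probe was detected on 4 arrays and the second Atp6v1c2 probe on 2.

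Total RNA from kidneys of CD-1 mouse embryos was hybridised to Illumina whole-genome BeadChip arrays, 3 in each of 4 groups. The WT kidneys carried both normal Pkd1 alleles (Pkd1+/+) and the mutant kidneys were Pkd1-null (Pkd1-/-), each at embryonic age E14.5 or E17.5, with no other allele or treatment given. Each array held 1 pair of kidneys. WT and mutant embryos were littermates, but no mutant array is tied to a WT array, so groups were compared unpaired, and with no statement of separate litters the p-values measure the spread between these samples. Replicates carry the submitters' numbers. Those of E14.5 are 34, 57, 58 (WT) and 35, 59, 65 (mutant), those of E17.5 are 2, 38, 41 (WT) and 12, 40, 42 (mutant), and values are given in that order. The Pkd1-/- genotype is that of the whole embryo and is not limited to 1 cell type, and whole kidneys mix renal, vascular and blood cells.

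Intercalated cells are scattered between the water- and salt-handling principal cells of the collecting duct and connecting tubule. The transcription factor Foxi1 is needed for them to form in the mouse, and its targets include pump subunits and anion exchangers. Type A cells secrete acid into urine through a vacuolar proton pump (V-ATPase) on the luminal side and return bicarbonate to blood through the anion exchanger AE1, the product of Slc4a1. Type B cells do the reverse with pendrin (Slc26a4) on the luminal side, together with AE4 (Slc4a9). Rhbg is an ammonia transporter of the basolateral membrane. Atp6v1b1, Atp6v0d2, Atp6v1g3, Atp6v0a4 and Atp6v1c2 encode tissue-restricted forms of V-ATPase subunits, each with a widely expressed counterpart. AE1 is also the major anion exchanger of the red cell membrane, so Slc4a1 has a further source in kidneys that contain blood.

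Promoter sequences from RefSeq (GRCm38.p6, the 250 bases before a gene's start in the table used) matched 6 of the 10 genes, Foxi1, Slc26a4, Atp6v1b1, Atp6v1g3, Atp6v0a4 and Atp6v1c2. The forkhead core TGTTTA, a motif of the protein family to which Foxi1 belongs, was searched on both strands (TAAACA on the other). It was present in 1 of the 6, Atp6v1b1, 98 bases before the start, and in 12% of all 32851 promoters of that length (3952). The windows printed are those of Atp6v1b1 at chr6:83742767-83743016 (plus strand), the gene with the match, and of Slc26a4 at chr12:31559985-31560234 and Atp6v1c2 at chr12:17324731-17324980 (both minus strand), the exchanger and the pump subunit whose arrays followed Foxi1 closely. By gene coordinates, the Atp6v1c2 window lies within the gene (17284721-17325386), and the Slc26a4 window overlaps its gene, which ends at 31560055. For these genes the start in the table used is thus not the outer start of the gene. Capitals mark the motif. A match is a description of the letters in this window and not a binding site, and no match says only that these letters are not in it.
Atp6v1b1: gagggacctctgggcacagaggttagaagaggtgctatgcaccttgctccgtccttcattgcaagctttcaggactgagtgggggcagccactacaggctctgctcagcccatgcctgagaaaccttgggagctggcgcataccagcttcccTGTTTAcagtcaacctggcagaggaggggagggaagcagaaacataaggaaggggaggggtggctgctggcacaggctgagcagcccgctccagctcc
Slc26a4: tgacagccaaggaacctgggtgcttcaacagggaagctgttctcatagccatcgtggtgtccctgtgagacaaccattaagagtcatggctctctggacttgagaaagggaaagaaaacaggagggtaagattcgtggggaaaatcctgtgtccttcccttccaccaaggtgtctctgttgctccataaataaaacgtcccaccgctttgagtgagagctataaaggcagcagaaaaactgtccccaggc
Atp6v1c2: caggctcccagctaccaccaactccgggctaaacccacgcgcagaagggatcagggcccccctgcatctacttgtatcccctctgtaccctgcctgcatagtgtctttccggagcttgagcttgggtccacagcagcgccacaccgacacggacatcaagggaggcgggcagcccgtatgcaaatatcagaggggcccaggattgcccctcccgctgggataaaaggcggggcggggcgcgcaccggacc

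The arrays were alike in detection, with 42.8 to 44.8% of 45281 probes detected on each (19397 to 20290), and their number limits the precision. The lowest normalised log2 intensity of a detected probe was 5.43 to 5.57. A pair of arrays was left out in turn as a check. E17.5 WT replicate 2 had a mean log2 intensity of 11.08 over 13 liver plasma protein genes, against 5.82 to 7.88 on the other 11 arrays. E14.5 WT replicate 34 had a mean of 9.60 over 10 kidney epithelium genes, against 8.39 and 8.85 in the other WT replicates of its age. E14.5 mutants had 9.13, 9.01 and 9.02, so replicate 57, at 8.39, stood low at that age as replicate 34 stood high. Member results that rest on replicates 2 and 34, and calls at E17.5 in the other lists, are given with and without these arrays. The other lists are not given without replicate 57. Of those 10 epithelial genes 9 were higher at E17.5 in each genotype (20.2% of all features in WT, 21.7% in mutants). The probes of Pax2 and Epcam were detected on 0 arrays, as was that of Alb on the array rich in other liver transcripts, so a probe at background does not show that a gene is silent. The Pkd1 probe was not called lower in mutants (log2 fold change 0.80 at E14.5, adjusted p = 0.723 from limma, and 0.64 at E17.5, adjusted p = 0.135). The exons that the null allele lacks are not given in the sources used here, so its probe has no known place relative to them and checks nothing.

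Foxi1, Slc26a4, Slc4a9, Rhbg and Atp6v1c2 were near or under the detection limit in E14.5 kidneys and higher in E17.5 kidneys of each genotype. At E17.5, 4 of the 7 measured genes were lower in mutants by limma at an adjusted p under 0.05: Slc4a1, Slc26a4, Foxi1 and Atp6v1c2. Of all features, 1.39% were lower by the same rule and 3.16% passed in either direction. Rhbg and Slc4a9 had estimates of -0.81 and -0.90 that missed the threshold, and the estimate of Atp6v1b1 was -0.01. In whole-kidney RNA, fewer cells of a type and less RNA per cell cannot be told apart.

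**Figure D1:**
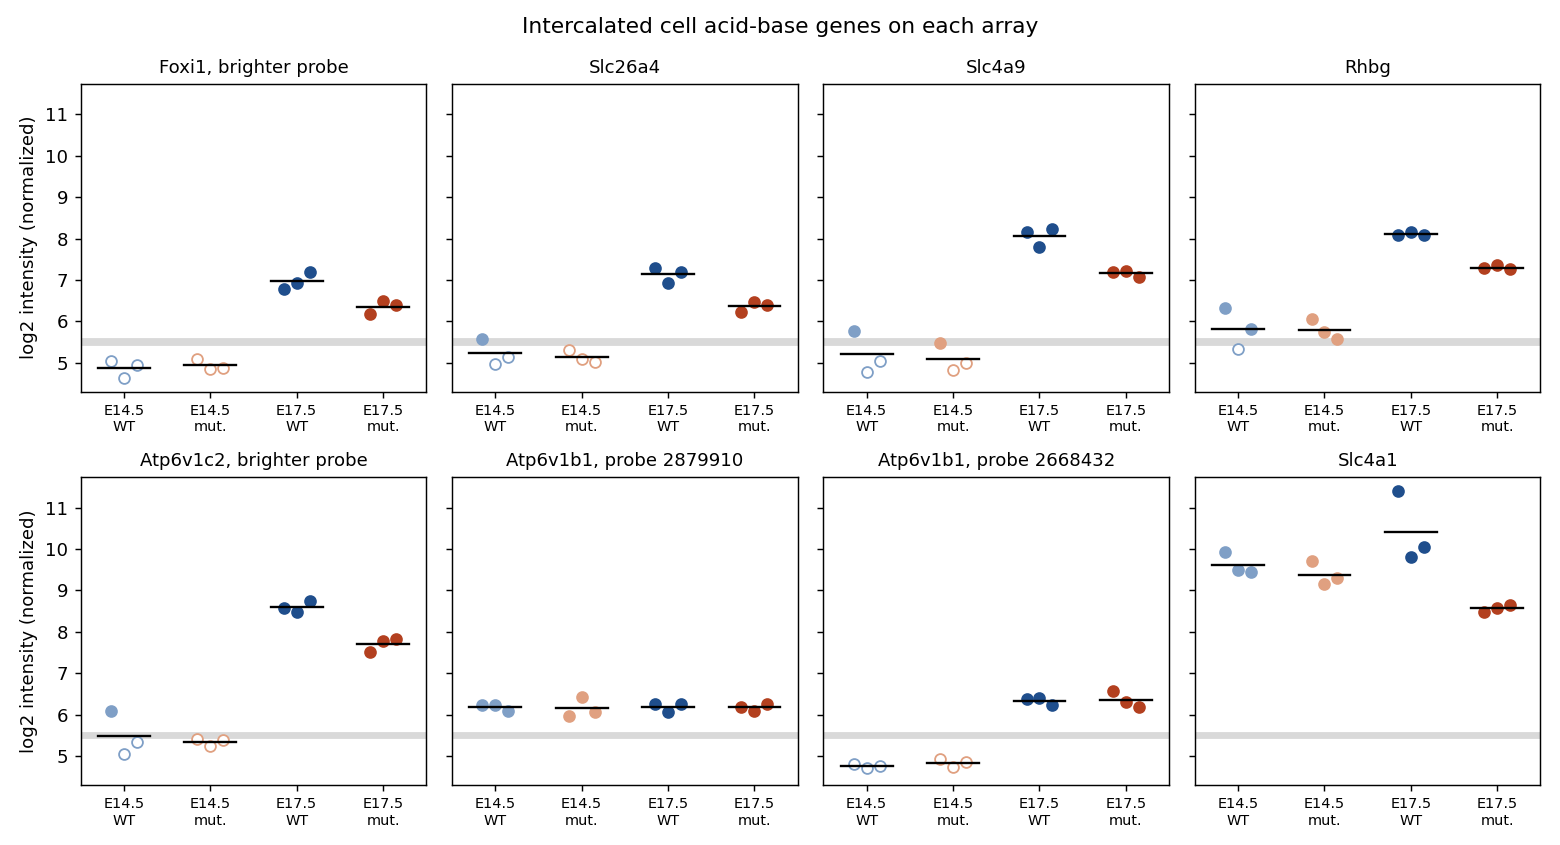
Normalised log2 intensity (y axis) of 8 kept probes on each of 12 arrays, by group (x axis), with filled points for detected and open points for not detected, a bar for the group mean and a grey band for the range of the lowest detected level. Foxi1, Slc26a4, Slc4a9, Rhbg and Atp6v1c2 sit at or near the band at E14.5 and above it at E17.5, where the 3 mutant points lie below the 3 WT points in each.

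Foxi1, the transcription factor, was read by 3 probes. Its brightest probe (ILMN_2722232) was detected on 0 of the 6 arrays at E14.5, with log2 intensities of 5.04, 4.65 and 4.94 (WT) and 5.10, 4.84 and 4.87 (mutants). At E17.5 it read 6.79, 6.94 and 7.19 in WT kidneys and 6.19, 6.48 and 6.40 in mutants. All 6 of these were detected, and the lowest WT array lay above the highest mutant array. WT arrays of this age averaged 6.97 ± 0.20 (SD, n = 3) and mutant arrays 6.36 ± 0.15, so Foxi1 was 1.53-fold lower in mutants (log2 fold change -0.62, standard error 0.14, adjusted p = 0.0395 from limma). A second probe (ILMN_3000416) read 5.85, 5.94 and 5.96 in WT and 5.26, 5.52 and 5.15 in mutants, of which only the value of 5.52 was detected. That probe was kept through its E17.5 WT arrays alone, so its difference of -0.61 on the log2 scale is a description and no further support. The remaining Foxi1 probe was detected on 0 arrays. With age, Foxi1 stood at least 2.79-fold higher between WT groups and at least 1.82-fold higher between mutant groups. Each is a lower bound because E14.5 lay at the background. The brightest probe was kept through its E17.5 arrays alone, so this rise is a description. The call between genotypes at E17.5 was lost when any 1 of 9 arrays was left out (E14.5 WT replicate 58, E14.5 mutant replicates 59 and 65, or any E17.5 array), with adjusted p from 0.0513 to 0.108, while the estimate stayed between -0.73 and -0.46 in every alternative.

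Slc26a4 and Slc4a9 encode the type B cell exchangers pendrin and AE4. Slc26a4 read 5.58, 4.96 and 5.14 in E14.5 WT kidneys, detected only in replicate 34, and 5.31, 5.10 and 5.03 in E14.5 mutants, detected in none. E17.5 WT kidneys gave 7.28, 6.93 and 7.19 and E17.5 mutants 6.23, 6.47 and 6.40. Every E17.5 array was above every E14.5 array, and the mutants of that age lay below WT without overlap. The genotype difference at E17.5 was -0.77 on the log2 scale (standard error 0.16, 1.70-fold lower, adjusted p = 0.0279). It was no longer called without E17.5 WT replicate 2 (-0.70, adjusted p = 0.0934), WT replicate 41 (0.0742) or any of mutant replicates 12, 40 and 42 (0.0626 to 0.0791).

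Slc4a9 stood higher at E17.5, at 8.15, 7.79 and 8.23 in WT and 7.20, 7.22 and 7.06 in mutants, after 5.78, 4.78 and 5.05 in E14.5 WT and 5.48, 4.83 and 5.0 in E14.5 mutants. The E14.5 values of 5.78 and 5.48 were the only ones detected at that age. The groups were again apart at E17.5, but the difference of -0.90 (standard error 0.24, 95% interval -1.41 to -0.38) had an adjusted p of 0.0654 and was not called. Without E14.5 WT replicate 34 the same difference had an adjusted p of 0.0224, and the SD of E14.5 WT with that array was 0.52 against 0.086 to 0.34 in the other groups. The difference was not called in 11 of 12 fits with 1 array left out (adjusted p up to 0.163). Among the other settings, 7 of 10 gave no call (up to 0.618). Age carried the larger difference for both exchangers. For Slc4a9 it was 2.85 in WT and 2.06 in mutants on the log2 scale. For Slc26a4 it was 1.91 in WT (3.75-fold) and at least 0.87 in mutants (1.83-fold). Both genes were kept through their E17.5 arrays, so these age differences are descriptions.

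Rhbg, the ammonia transporter, was the member most often detected at E14.5 after Slc4a1 and Atp6v1b1, on 5 of 6 arrays. It read 6.32, 5.34 and 5.81 in E14.5 WT and 6.06, 5.74 and 5.56 in E14.5 mutants, where the genotypes overlapped. At E17.5 replicates were tight, at 8.09, 8.15 and 8.09 in WT and 7.28, 7.36 and 7.25 in mutants. All mutant arrays were below all WT arrays, and the SDs at this age were 0.035 and 0.057. The fit, which shares 1 spread across the 4 groups, gave a difference of -0.81 (standard error 0.20, 1.75-fold lower, adjusted p = 0.0546), just outside the threshold. With only the E17.5 arrays in the fit the adjusted p was 0.0117, and without E14.5 WT replicate 34 it was 0.0159. The difference was not called in 10 of 12 fits with 1 array left out (adjusted p up to 0.129). Among the other settings, 7 of 10 gave no call (up to 0.171). Rhbg rose with age by 2.28 in WT (adjusted p = 1.03e-05) and 1.51 in mutants (adjusted p = 1.57e-04).

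Among the pump subunits, Atp6v1c2, which encodes a tissue-restricted C subunit of the cytosolic V1 sector, was the 1 that passed between genotypes. Its bright probe (ILMN_2898578) read 6.08, 5.05 and 5.34 in E14.5 WT, detected only in replicate 34, and 5.41, 5.26 and 5.40 in E14.5 mutants, detected in none. At E17.5 it reached 8.57, 8.48 and 8.74 in WT and 7.51, 7.77 and 7.83 in mutants. The E17.5 genotypes did not overlap, and the mutant values stayed well above the E14.5 level. The difference at E17.5 was -0.90 (standard error 0.21, 1.86-fold lower, adjusted p = 0.0433). It remained called only without E14.5 WT replicate 34 (adjusted p = 0.00329) or 57 (0.0235), and leaving out any of the other 10 arrays gave an adjusted p from 0.0606 to 0.120. With age Atp6v1c2 stood 3.11 higher in WT on the log2 scale (8.645-fold). In mutants it stood at least 2.21 higher on that scale (4.63-fold). Both are descriptions because this probe was kept through its E17.5 arrays. The second Atp6v1c2 probe (ILMN_1244260) was detected on 2 arrays, both E17.5 WT. Its mean at E17.5 was 5.57 ± 0.13 in WT (SD, n = 3) and 5.21 ± 0.15 in mutants, and it was not tested.

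Atp6v1b1 encodes the B1 subunit of V1, mutated in a human distal renal tubular acidosis with deafness. Its brighter probe (ILMN_2879910) was level across the study, at 6.23, 6.23 and 6.10 in E14.5 WT, 5.96, 6.43 and 6.07 in E14.5 mutants, 6.25, 6.06 and 6.25 in E17.5 WT and 6.20, 6.08 and 6.25 in E17.5 mutants. Its other probe (ILMN_2668432) was not detected on any E14.5 array, at 4.71 to 4.92, and read 6.37, 6.40 and 6.24 in E17.5 WT and 6.56, 6.31 and 6.18 in E17.5 mutants. The probes thus disagreed on age: the first differed by 0.00058 in WT (adjusted p = 0.998), and the second, kept through its E17.5 arrays alone and so given as a description, stood at least 1.80-fold higher at E17.5 among WT and at least 1.81-fold among mutants. Neither separated the genotypes at E17.5. The first differed by -0.01 (95% interval -0.27 to 0.25) and the second by 0.01 (-0.22 to 0.25), and neither interval includes the -0.90 of Atp6v1c2. In the counts of members the first probe, the brighter on average, stands for the gene.

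The other 3 pump subunits were not measurable. Atp6v0d2 (a d subunit of the membrane V0 sector) and Atp6v0a4 (an a subunit of V0, also linked to distal renal tubular acidosis in people) had deposited intensities below 0 on all 12 arrays, from -17.4 to -6.92 and from -14.5 to -4.39. Atp6v1g3, a G subunit of V1, was not detected either, but its E17.5 log2 values of 5.42, 5.39 and 5.07 in WT and 4.80, 4.91 and 4.81 in mutants did not overlap, against 4.58 to 4.72 in all E14.5 kidneys. All of these values lie under the lowest level of a detected probe, and they were not tested.

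**Figure D2:**
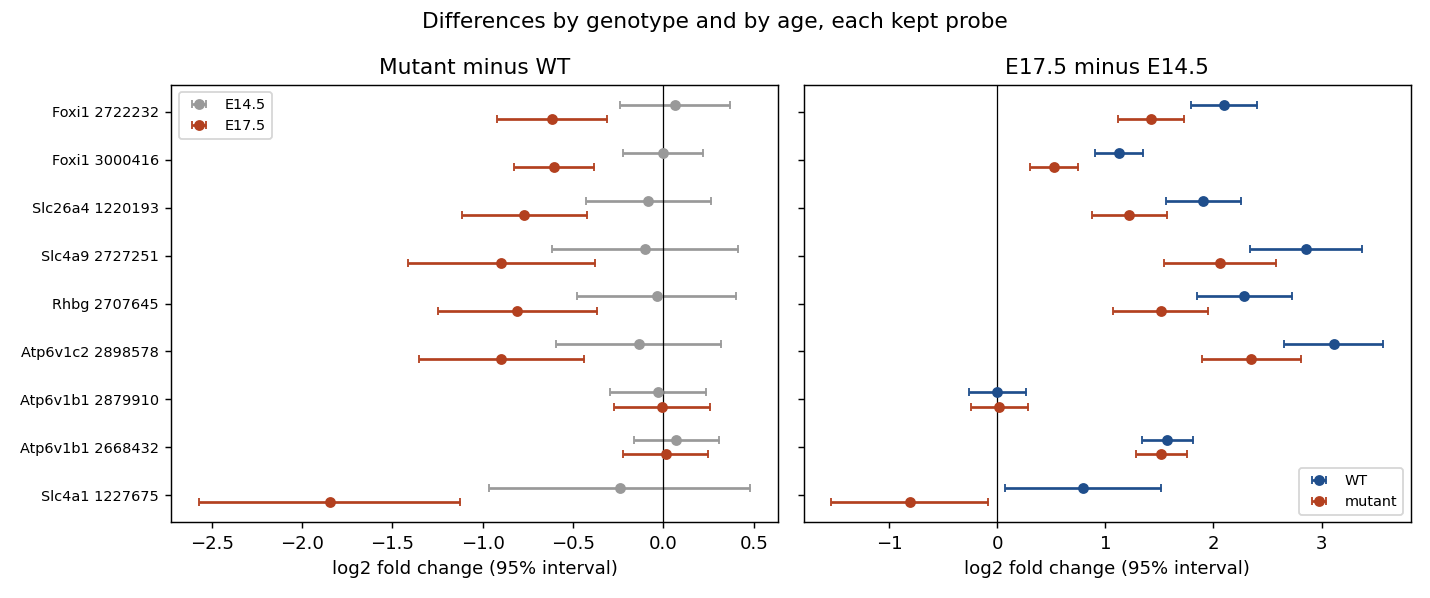
Log2 fold change (x axis) of the 9 kept probes (y axis) with 95% intervals from limma, mutant minus WT at each age in one panel and E17.5 minus E14.5 in each genotype in the other. At E17.5 both Foxi1 probes, Slc26a4, Slc4a9, Rhbg, Atp6v1c2 and Slc4a1 lie left of 0, while at E14.5 every interval spans 0 and the Atp6v1b1 probes part from each other in the age panel, where fitted values are drawn also for groups under the detection limit.

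Slc4a1 was the member that differed most between genotypes at E17.5 and did not share the rise with age. It was detected on all 12 arrays, at 9.94, 9.48 and 9.44 in E14.5 WT and 9.70, 9.15 and 9.29 in E14.5 mutants. At E17.5 it read 11.40, 9.80 and 10.05 in WT and 8.48, 8.57 and 8.65 in mutants. E17.5 WT replicate 2 was the highest array, and the E17.5 mutants were the lowest 3 of the 12. The E17.5 means were 10.42 ± 0.86 (SD, n = 3) and 8.57 ± 0.085, a log2 fold change of -1.85 (standard error 0.33, 3.60-fold lower, adjusted p = 0.0152). Without WT replicate 2 it was -1.35 (adjusted p = 0.00581). The call was lost without E17.5 mutant replicate 12 (adjusted p = 0.0550) or 40 (0.0576), and with the E17.5 arrays fitted alone (0.0664). The age differences of 0.79 in WT (adjusted p = 0.0736) and -0.81 in mutants (0.0689) were not called. Leaving out WT replicate 2 took the first to 0.30 and gave the second an adjusted p of 0.00292, and leaving out WT replicate 38 gave 1.10 (adjusted p = 0.0221) and 0.0459.

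Because Slc4a1 is a red cell gene, other red cell genes were read beside it. Of 26 listed, 16 were kept, and their mean log2 intensity ran from 8.86 to 9.06 in E14.5 WT, 8.94 to 9.03 in E14.5 mutants, 8.85 to 9.33 in E17.5 WT and 8.86 to 9.07 in E17.5 mutants. The genotypes overlapped at each age, with replicate 2 the highest array of all. The list mixes very bright and very dim genes. Group means ran from 14.95 to 15.25 for the globins Hba-a1, Hbb-bt and Hbb-bs, and from 5.14 to 5.64 for Ank1 and Hemgn. The highest value was the same, 15.26, for Hba-a1 in E14.5 mutants and Hbb-bs in each E17.5 group. These globins lie near the top of the normalised scale, where a difference may not show. The mean of the list is thus a coarse reading, and whether red cell content differed was not tested. At E17.5, 0 of the 16 were lower in mutants (1.39% of all features were). Only the adult beta globin Hbb-b2 was higher, 1 of the 16, and its probe may also read its near-identical neighbours. Its log2 fold change was 0.86 (adjusted p = 0.0466 from limma, and 0.0520 without E14.5 WT replicate 34). The median of the list was 0.0061 against 0.02 over all features. Alas2, the erythroid enzyme of haem synthesis, read 10.16, 9.83 and 9.70 in WT and 10.16, 11.13 and 9.82 in mutants (adjusted p = 0.437). Epb42, Rhd and Gata1, further defining markers, were detected on 0 arrays.

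Single erythroid genes did resemble Slc4a1 at E17.5, and they and Alas2 were chosen after their values were seen. Kel, a red cell membrane antigen, read 7.21, 5.75 and 5.76 in E17.5 WT and 4.93, 5.17 and 5.26 in mutants, the latter all not detected. Against the WT mean that includes replicate 2 it was at least 1.72-fold lower, or -0.78 on the log2 scale. The fitted difference was not called (adjusted p = 0.0788 from limma). Without WT replicate 2 the fitted difference of Kel went from -1.12 to -0.63 (adjusted p = 0.0873), smaller than that bound, which thus rests on this array. Klf1, the erythroid transcription factor, read 6.70, 5.66 and 6.07 in WT and 5.51, 5.29 and 5.26 in mutants, again not detected. Against the mean of all WT arrays it was at least 1.61-fold lower, or -0.68 on the log2 scale (fitted adjusted p = 0.0788). Its fitted difference went from -0.79 to -0.51 without replicate 2 (adjusted p = 0.183), again smaller than the bound. Trim10, an erythroid RING finger gene, was at 7.27 in WT replicate 2 and at 5.05 to 5.43, not detected, on the other 5 arrays of that age. The mean of the red cell list thus overlapped between the E17.5 genotypes, while Kel, Klf1 and Trim10 were highest of all 12 arrays in replicate 2. The liver list had the same high array (11.08, 7.22 and 7.88 in WT against 6.99, 6.84 and 6.69 in mutants). Of its 13 genes 1 was called lower in mutants (Ttr, -2.70, adjusted p = 0.0356 from limma), where 1.39% of all features were. Without that array 0 were (Ttr -2.25, adjusted p = 0.111). Which share of the Slc4a1 signal came from intercalated cells was not tested. Of the other members that differed by age, Foxi1, Rhbg, Slc4a9 and Atp6v1c2 did not peak in replicate 2, and Slc26a4 did, at 7.28 against 7.19 in replicate 41.

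**Figure D3:**
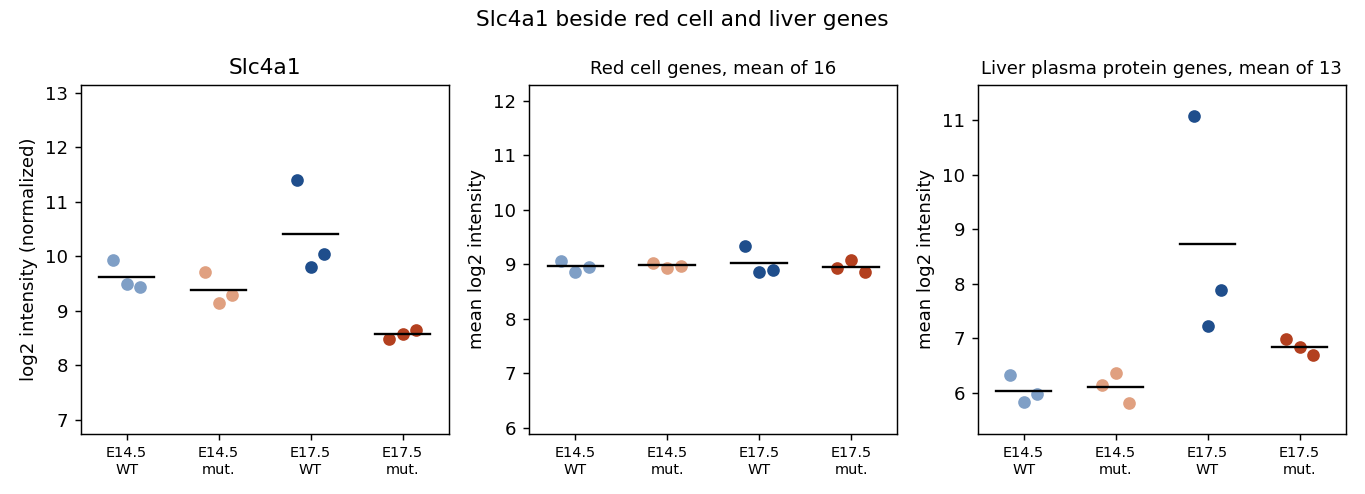
Log2 intensity of Slc4a1 (left), and the mean log2 intensity of 16 red cell genes (middle) and 13 liver plasma protein genes (right), on each of 12 arrays by group, with bars for group means. The mutant Slc4a1 points at E17.5 (8.48 to 8.65) lie below all others, the red cell mean stays between 8.85 and 9.33, and the liver mean reaches 11.08 on E17.5 WT replicate 2 alone.

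The genotypes did not differ detectably at E14.5 in any member. The estimate was -0.24 for Slc4a1. No fold can be given for Foxi1 with both groups at background, nor for Slc26a4 and Atp6v1c2, each detected only in WT replicate 34. Of the members 0 of 7 were called (adjusted p = 0.9996 from limma for each, background 0.0538% of features), with 0 at an unadjusted p under 0.05 (background 3.2%). The signal bounds this: 5 of the 7 genes were detected on at most 5 of 6 arrays, and the 95% interval for Slc4a9 ran from -0.62 to 0.42. Without E14.5 WT replicate 34 the estimates of Slc26a4, Slc4a9, Rhbg and Atp6v1c2 changed sign, to 0.09, 0.19, 0.21 and 0.16. Slc26a4 and Atp6v1c2 were then detected on no E14.5 array, so their signs compare background readings.

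At E17.5 the groups did not overlap, with mutants lower, in 6 of 7 members, a pattern found in 10.4% of all features. The same 6 had an unadjusted p under 0.05 (8.39% of features were lower by that rule), and the median of the 7 was -0.81 against 0.02 over all features. With a fold of at least 2 and an unadjusted p of at most 0.05, 1 member passed, Slc4a1, beside 0.954% of features in either direction. Left-out arrays moved the count of 4 to between 0 and 6, with 0 without E17.5 mutant replicate 12 or 40, 1 without WT replicate 2 or 41 or mutant replicate 42, 2 without WT replicate 38 or, at the younger age, without WT replicate 58 or mutants 59 or 65, and 6 without E14.5 WT replicate 34. The estimates of these 6 genes were negative at E17.5 in every alternative that measured them.

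By age, 5 of 7 members were higher at E17.5 in WT (20.2% of features were) and the same 5 in mutants (21.7%), namely Foxi1, Slc26a4, Slc4a9, Rhbg and Atp6v1c2. Because detection on 3 arrays of any group kept a probe, Foxi1, Slc26a4, Slc4a9 and Atp6v1c2 were kept through their E17.5 arrays, so this count is a description. In WT it was also 5 without E14.5 WT replicate 34 and without E17.5 WT replicate 2. With genes of an undetected group at their lower bound, the median member difference was 1.91 in WT and 0.87 in mutants (2.10 and 1.42 as fitted), against -0.05 and -0.02 over all features. Whether the genotype difference grew with age was tested directly: 0 of 7 passed (background 0.175%), with estimates from -1.61 for Slc4a1 to -0.68 for Foxi1 in 6 genes and adjusted p from 0.288 to 0.435, and 0.02 for Atp6v1b1. Slc4a1 and the Atp6v1b1 probe used were detected on all 12 arrays, while the other estimates use E14.5 levels at or near background. The 6 had an unadjusted p under 0.05, as did 4.76% of features in that direction. Without E14.5 WT replicate 34, Atp6v1c2 passed (-1.06, adjusted p = 0.0465 from limma), but no remaining E14.5 array detected this gene. These comparisons share arrays and are not independent of each other.

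Among other genes of the same cells 1 passed between genotypes at E17.5, where 1.39% of all features were lower by the same rule. Of 22 further intercalated cell genes, 13 were kept, and the gene lower in E17.5 mutants was Car15, a membrane-bound carbonic anhydrase. WT arrays read 8.25, 8.09 and 8.59 and mutant arrays 6.91, 7.25 and 7.20, without overlap (log2 fold change -1.19, adjusted p = 0.0188). Without E17.5 WT replicate 2 it was -1.22 and 0 of the 13 passed (Car15 adjusted p = 0.0540), and without E14.5 WT replicate 34 Car12 and Bsnd, the chloride channel subunit barttin, passed as well. With all arrays, all 13 estimates were below 0 (11 without WT replicate 2), where 45.6% of features were, with a median of -0.34. Rhcg, an ammonia transporter related to Rhbg, had an estimate of -0.33 (adjusted p = 0.195), and Car12, a membrane carbonic anhydrase, of -0.56 (0.138). By age, 10 of the 13 were higher in WT (20.2% of features were) and 9 in mutants (21.7%). Car15 and Oxgr1 were kept through their E17.5 arrays, so these counts are descriptions. Among the genes higher with age were Rhcg (1.76 in WT, 1.21 in mutants), Car12 (2.56 and 2.00) and Atp12a, a proton-potassium pump (2.62 and 2.50), whose genotype estimate at E17.5 was -0.10. Oxgr1, the alpha-ketoglutarate receptor of type B cells, was detected on 0 arrays in E14.5 WT and rose at least 2.99-fold in WT. Tfcp2l1, a transcription factor of the collecting duct, rose by 1.09 on the log2 scale in mutants.

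The kept general V-ATPase subunits were detected on all 12 arrays and showed no call between genotypes. Of 20 listed, 17 were kept and 0 passed at E17.5 (3.16% of features did). Of their estimates 15 were below 0 (45.6% of features were) and the median was -0.18. By age, 13 were higher in WT (20.2% of features were), and 11 were higher (21.7% of features) and 1 lower in mutants, with the smallest p in WT for Atp6v1a, the catalytic A subunit (1.20, adjusted p = 4.98e-05, and 0.70 in mutants). The widely expressed counterparts of the members were among them. Atp6v1b2, the B subunit of most tissues, was 11.88 in WT and 11.81 in mutants at E17.5 (-0.07, adjusted p = 0.751). Atp6v1c1, the general C subunit, was 10.10 and 9.93 (-0.17, adjusted p = 0.589). Atp6v1g1 (-0.33, adjusted p = 0.176) and Atp6v0d1 (-0.09, 0.603) did not pass either, and Atp6v0a1 had the only estimate well above 0 (0.50, adjusted p = 0.0566). A difference between a member and its counterpart was not tested.

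In principal cells, the neighbours of intercalated cells, 11 of 14 listed genes were kept and 0 passed between genotypes at E17.5 (3.16% of features did). Of their estimates 9 were below 0 (45.6% of features were), with a median of -0.11. Aqp2, the vasopressin-regulated water channel, had an estimate of -0.51 (adjusted p = 0.0868) and Scnn1a, a subunit of the epithelial sodium channel, of -0.02 (0.972). Hsd11b2, at -0.76 (adjusted p = 0.0531 from limma), lay within the range of the 6 lower members, -1.85 to -0.62. Aqp3, at -0.61 (0.377), and Kcnj1, at -0.54 (0.499), did not reach that range. Aqp4 (0.21) and Fxyd4 (0.10) lay above 0. All 11 were higher at E17.5 in WT (20.2% of features were) and 10 in mutants (21.7%), with Aqp2 up at least 21.7-fold and 15.2-fold and Scnn1a at least 3.17-fold and 3.14-fold. Neither was detected on any E14.5 array, so both were kept through their E17.5 arrays and this is a description. Of all features, 3.16% passed between genotypes at E17.5 in either direction. In other compartments at this age, 1 of 10 ureteric bud genes was higher in mutants (Wnt7b, 0.65, adjusted p = 0.0385 from limma). Of 10 macrophage and osteoclast genes 1 was higher (Csf1r, 0.82, adjusted p = 0.00484), and 1 of 10 kidney epithelium genes was lower (Umod, -1.59, adjusted p = 0.0396). Without E17.5 WT replicate 2 only Csf1r of these 3 remained called (adjusted p = 0.0152), with 0.118 for Wnt7b and 0.105 for Umod. Without E14.5 WT replicate 34, 1 principal cell gene passed as lower (Hsd11b2, adjusted p = 0.0437) and 2 ureteric bud genes as higher (Wnt7b and Krt8).

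**Figure D4:**
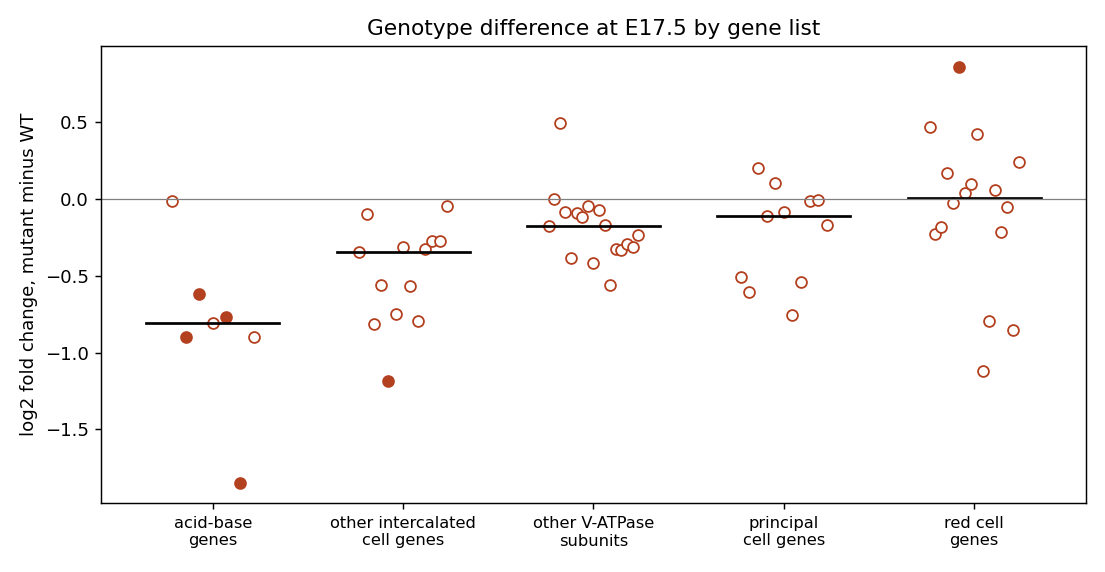
Log2 fold change, mutant minus WT at E17.5 (y axis), of each kept gene in 5 lists (x axis), with filled points for an adjusted p under 0.05 and a bar for the list median, drawn at the fitted value also where a group was not detected. The medians are -0.81 for the acid-base genes, -0.34 for the other intercalated cell genes, -0.18 for the other V-ATPase subunits, -0.11 for principal cell genes and 0.0061 for red cell genes.

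Foxi1, Slc26a4, Slc4a9, Rhbg and Atp6v1c2 followed each other over the arrays. Over the 12 arrays, which share the age and genotype steps, Pearson's r with the bright Foxi1 probe was 0.990 for Atp6v1c2, 0.985 for Slc4a9, 0.984 for Rhbg and 0.981 for Slc26a4, but 0.186 for Slc4a1. The dimmer Atp6v1b1 probe had 0.946 and the brighter one -0.0046. On deviations from the group means, r with Foxi1 was 0.702 for Atp6v1c2, 0.664 for Rhbg, 0.638 for Slc4a9 and 0.618 for Slc26a4, and -0.105 for Slc4a1, while Slc4a1 had 0.635 with Slc26a4 and 0.507 with Slc4a9. At E14.5 the Foxi1 probe was detected on no array, and Slc26a4, Slc4a9 and Atp6v1c2 on at most 1 array per genotype. The E14.5 deviations of these genes are thus mostly background readings and do not show that the genes vary together. The kept genes whose log2 intensity over 12 arrays was most like the mean of the 7 standardised members were Ttr (r = 0.985), the V-ATPase subunit Atp6v1e1 (0.983), Car15 (0.982), Slc22a13 (0.981) and Gcdh (0.980). On deviations from group means they were Arf6 (0.930), Il15 (0.904), Gpx1 (0.900), Lcn2 (0.899) and P3h2 (0.891), a different set, as the first measure follows the steps between groups and the second the spread within them. Both are descriptions over 12 arrays.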

How the data were processed

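Total RNA of 12 pairs of embryonic mouse kidneys, extracted with Trizol and the miRNeasy kit, was hybridised to Illumina mouse BeadChips. The authors deposited bead summary intensity values from BeadStudio without normalization between arrays, of which 31.3 to 34.0% per array are at or below 0, so a background had already been subtracted. The authors also deposited a detection p-value for every probe and array. A second deposited table of intensity values, background-subtracted, log2 transformed and quantile normalized with beadarray, has empty cells for values at or below 0 and served as an alternative. The submitters' processing notes name limma. Groups follow the labelled genotype and embryonic age, and 0 columns lacked a sample.

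Intensities were corrected with the normal-exponential model of limma 3.58.1 (R 4.3.3), raised by an offset of 16, quantile normalized and log2 transformed. Of 45281 probes, 21526 passed the detection filter. The brightest kept probe stood for a gene, and probes without 1 symbol were tested under their own identifier. Empirical Bayes fits of 4 group means gave 5 contrasts, adjusted by Benjamini-Hochberg over all features and called at an adjusted p under 0.05. Where a group was detected on 0 arrays, folds were computed against the lowest detected level of each array, or the probe's own where higher, and are given as at least that size in the text. The fit was tested on simulated data. Figures used matplotlib 3.10.9 in Python 3.11.15.

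The members and the lists (other intercalated cell genes, other V-ATPase subunits, principal cell, red cell, ureteric bud, liver plasma protein, macrophage and osteoclast, and kidney epithelium genes) were chosen with earlier results of these data known. Named genes were all members, up to 4 called genes with the smallest p per list and comparison, the general counterparts of the pump members, and the 5 most alike by each of 2 correlations. Alas2, Kel, Klf1, Bsnd and Hsd11b2, and listed genes given as not detected, were named after their values were seen. So were Hba-a1, Hbb-bt, Hbb-bs, Ank1, Hemgn, Aqp3, Aqp4, Fxyd4 and Kcnj1. Alternatives changed the background correction, offset, normalization, filter, probe, value table, arrays in the fit, variance model and call rule. Lower bounds in list medians (0 where no fold can be given) and the other lists without single arrays were added after seeing the data. The BeadChip of each array is not given in the sources used here, and a chip effect was not tested.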

Additional observations from a re-analysis of the deposited data

How the results depend on the processing

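The count of 4 members lower in mutants at E17.5 depended on the processing. It was 1 with no background correction, with plain subtraction, with the authors' value table, with detection required on all 12 arrays (which leaves 2 members, Slc4a1 and Atp6v1b1), with a separate variance for each group and with the thresholds of the study, 2 with cyclic loess or no filter on dim probes, 6 with an offset of 50, and 0 to 6 when 1 array was left out. Requiring detection on all 12 arrays took both age counts from 5 to 0, and they were otherwise 5 to 6, counting calls in either direction. In mutants without E17.5 WT replicate 2, 5 members were higher and 1, Slc4a1, was lower. The count for the change of the genotype difference with age was 0 to 1 when 1 array was left out, and no member was called at E14.5 under any alternative. Estimates of 6 members at E17.5 stayed negative in each alternative that measured them, from -0.73 to -0.46 for Foxi1, -2.15 to -1.35 for Slc4a1, -0.90 to -0.58 for Slc26a4, -1.03 to -0.76 for Slc4a9, -0.88 to -0.69 for Rhbg and -0.96 to -0.80 for Atp6v1c2.

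Signs changed for genotype differences at E14.5 and for Atp6v1b1. Plain subtraction gave Slc4a9 0.13 at E14.5. The authors' value table gave -0.50 for Foxi1 and 0.029 for Slc4a9 at E14.5, and for Atp6v1b1 0.068 between genotypes at E17.5 and -0.065 with age in WT. For Atp6v1b1, cyclic loess gave -0.0048 for the change with age of the genotype difference, and the mean of both probes gave 0.021 at E14.5, 0.0013 at E17.5 and -0.020 for that change, with age differences of 0.79 in WT and 0.77 in mutants that passed. In an alternative chosen after seeing the data, each kept probe was tested on its own: the second Foxi1 probe gave -0.0033 at E14.5, and the second Atp6v1b1 probe 0.071 at E14.5, 0.012 at E17.5 and -0.058 for the change with age. With 1 array left out, estimates at E14.5 ran from -0.050 to 0.15 for Foxi1, -0.22 to 0.093 for Slc26a4, -0.31 to 0.19 for Slc4a9, -0.28 to 0.21 for Rhbg, -0.36 to 0.16 for Atp6v1c2 and -0.16 to 0.067 for Atp6v1b1, and for Atp6v1b1 also from -0.073 to 0.037 at E17.5, -0.042 to 0.064 with age in WT, -0.076 to 0.16 with age in mutants and -0.077 to 0.15 for the change of the genotype difference. The cause of these shifts was not tested.

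No paired analysis was possible because the labels give the groups no shared replicate numbers. The BeadChip as a block was not run, since no source used here gives the chips. Signal over background limits the E14.5 values, where Foxi1 was not detected on any array.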
